A study of Mus musculus with 8 samples.

Results

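The caspase core of apoptosis and its inhibitors were followed in whole aortas through 8 genes, taken by symbol from the 23420 genes of the deposited table: Casp6, Casp8, Casp9, Apaf1, Cflar, Xiap, Birc2 and Birc3. All 8 were present and all 8 passed the filter on low values. Every aorta came from an ApoE-/- mouse that was irradiated when 6 weeks old and reconstituted with fetal liver cells, left to recover for 6 weeks and then infused with angiotensin II at 1 µg/kg/min for 28 days, a regimen that produces abdominal aortic aneurysm in this strain. The donor cells were either Ntn1-/- ApoE-/- or Ntn1+/+ ApoE-/-, giving 4 libraries labelled Ntn1-/- and 4 labelled WT (replicates A to D in each), each labelled as a separate replicate. Netrin-1 is a secreted guidance cue, and only the blood lineages built by the graft lacked it: smooth muscle cells, fibroblasts, endothelium and other cells of the host kept the gene. The comparison asks how RNA of the whole aorta differs when blood-borne cells cannot make netrin-1. The study reports that fewer recipients of Ntn1-/- cells developed aneurysm, so donor genotype and disease state cannot be told apart here.

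Caspases are proteases that cut their targets after aspartate and that lie in the cell as inactive precursors. Caspase-8 is switched on at death receptors, whereas caspase-9 is switched on by the apoptosome, a wheel that Apaf1 builds when cytochrome c leaves the mitochondria, and both can then set off executioner caspases. c-FLIP, the product of Cflar, sits in for caspase-8 at the receptor, and the inhibitor of apoptosis proteins (IAPs) act further on: XIAP blocks the active caspases directly, while cIAP1 and cIAP2, the products of Birc2 and Birc3, are ubiquitin ligases that steer TNF receptor signalling towards NF-kB.

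The sequence around the catalytic site shows what sets Cflar apart from the caspases. The coding sequence on either side of the active-site cysteine is given for the 3 caspases (GENCODE transcripts on mm9, read along the coding strand, with the cysteine codon in capitals), together with the corresponding stretch of Cflar, in which the capitals mark the codon at the same place.

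Casp8: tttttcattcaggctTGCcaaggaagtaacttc
Casp9: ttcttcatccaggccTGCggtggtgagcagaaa
Casp6: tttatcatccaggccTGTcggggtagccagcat
Cflar: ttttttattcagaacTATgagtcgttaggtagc

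The codon was number 362 in Casp8, 325 in Casp9 and 146 in Casp6, and all 3 encode cysteine. Codon 365 of Cflar does not, which is the known reason why c-FLIP can occupy the place of caspase-8 without cutting. Over 433 aligned residues the translated products of Casp8 and Cflar were 32.1% identical, against 42.0% for Casp8 and Casp6 and 34.2% for Casp8 and Casp9. Cflar (chromosome 1, 58768352 to 58815728) and Casp8 (chromosome 1, 58852218 to 58904347) lie 36489 bases apart on the plus strand in the mm9 annotation.

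The libraries held between 19879329 and 28202931 reads in genes, and the lowest count of any member in any library was 212 reads (Apaf1). Ntn1 RNA itself ranged from 5273 to 10224 normalized reads in the Ntn1-/- libraries and from 6002 to 9870 in the WT libraries (the ranges overlap), so it does not check the labels in a tissue where host cells carry the intact gene. Smooth muscle markers were abundant in every library (summed level 324266 to 841059 normalized reads). Several libraries stood apart in other tissue markers. All 10 neuron markers had higher estimates in the Ntn1-/- group, and their summed level was 2774 to 11824 normalized reads there against 2389 to 2854 in WT, with Ntn1-/- replicates B and C highest. These same libraries lay 3.08 and 3.07 log2 units above the mean of all 8 for skeletal muscle markers, and WT replicate A lay 1.40 above it. For the 3 thymocyte markers tested, Ntn1-/- replicates B, C and D lay 2.09, 2.20 and 0.96 above the mean and WT replicate A 1.66. The remaining libraries lay below it. Thymocyte RNA was low, with a summed level of 62.3 to 311 normalized reads in Ntn1-/- and 66.0 to 213 in WT. WT replicates A, C and D lay 2.11, 2.14 and 2.94 log2 units above the mean for liver markers, all 8 of which had lower estimates in the Ntn1-/- group. Ntn1-/- replicate B was lowest for the 10 macrophage markers, 1.22 log2 units below the mean. In whole tissue, fewer cells of a type and less RNA per cell cannot be told apart.

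The members were compared per kilobase of exon and ordered by their median. Cflar was the most abundant, with a median of 269 normalized reads per kb over the 8 libraries and a range of 244 to 324. Birc2 followed with a median of 241 (219 to 278), Casp8 with 241 (142 to 294) and Casp6 with 237 (167 to 273), and neighbouring ranges among these 4 genes overlapped. Casp9 came next at a median of 120.2 per kb (107 to 144). Its highest library lay below the lowest of Casp6 but above the lowest of Casp8. The ranges of Casp9, Xiap (median 95.7, 75.6 to 128) and Birc3 (median 81.6, 55.5 to 100.5) overlapped from each gene to the next. Apaf1 was the least abundant at 33.9 per kb (27.7 to 46.0), below every library of Birc3. The decoy Cflar and its partner Casp8 thus had overlapping ranges, and the apoptosome scaffold Apaf1 had the lowest range. These levels rest on annotated exon length and on the assumption that all annotated exons are used.

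**Figure D1:**
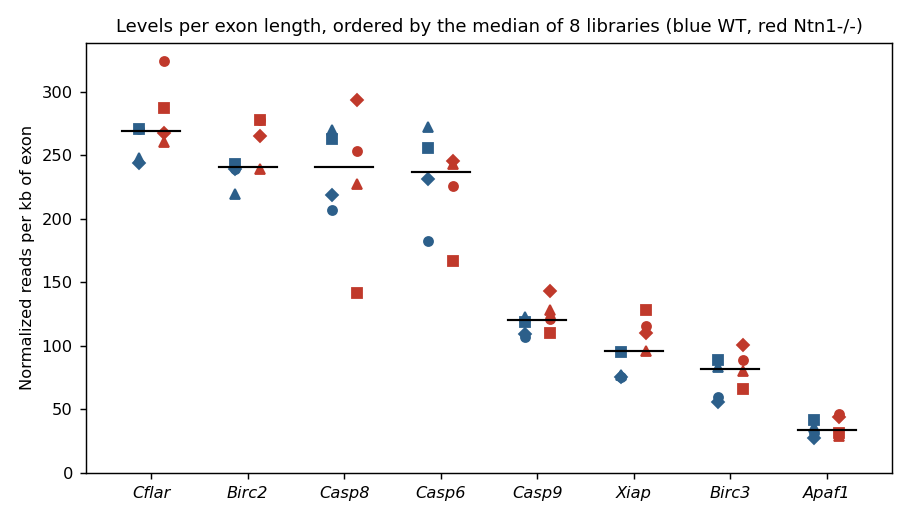
Normalized reads per kilobase of annotated exon (vertical axis, from 0) for the 8 members, ordered by their median (black line). Each point is 1 library, blue for WT and red for Ntn1-/-, with shapes for replicates A (circle), B (square), C (triangle) and D (diamond). The highest Casp9 library, at 144, lies below the lowest Casp6 library, at 167, but above the lowest Casp8 library, at 142.

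Between the groups, none of the 8 members passed limma with Benjamini-Hochberg adjustment over 14931 genes, and neither did any other gene (0.0% called). At an unadjusted p under 0.05, 2 members were higher in Ntn1-/- (Xiap and Birc2) and 0 were lower, where 15.6% of all genes tested lay under that p (8.37% higher and 7.25% lower). Xiap was the only member whose groups did not overlap, against 10.5% of all genes (5.13% higher and 5.34% lower). By sign alone, 6 members had higher estimates and 2 had lower ones, with a median log2 fold change of 0.13 (all genes: -0.015, with 47.6% of genes higher). DESeq2 on the recovered reads called 1 member, Xiap, and 542 genes in all (3.63%, with 2.16% called higher), whereas edgeR's quasi-likelihood test called 0 genes, with 2 members among the 16.5% of genes under an unadjusted p of 0.05. The 2 members with lower estimates were Casp6 and Casp8, and both signs turned when Ntn1-/- replicate B was left out.

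**Figure D2:**
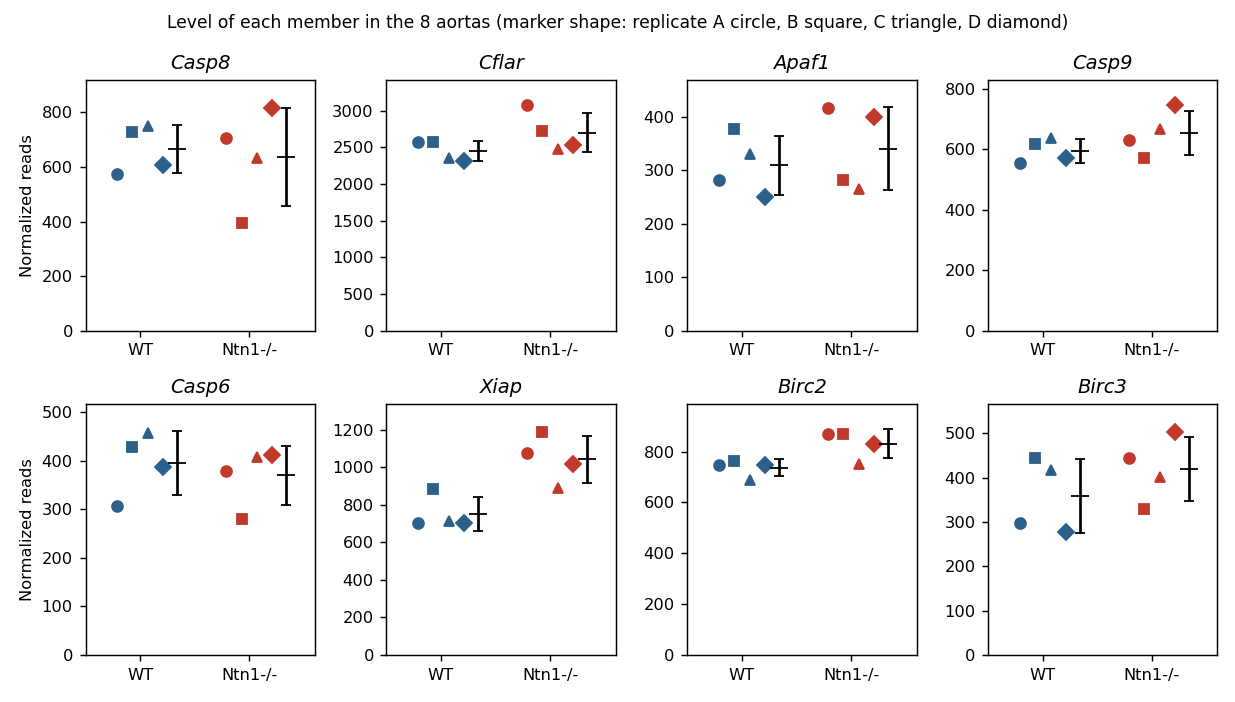
Normalized reads of each member (vertical axes from 0, a scale of its own for each gene) in the 4 WT (blue) and 4 Ntn1-/- (red) libraries, with mean and SD beside each group. Only for Xiap does the lowest Ntn1-/- library, at 888, lie above the highest WT library, at 884, and Ntn1-/- replicate B (square) holds the lowest Casp8 and Casp6 values.

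Among the inhibitors, Xiap showed the clearest difference of the group. It was measured at 1074, 1188, 888 and 1018 normalized reads in Ntn1-/- replicates A to D and at 700.0, 884, 712 and 700.0 in WT replicates A to D. All Ntn1-/- libraries lay above all WT libraries, but the lowest of them, at 888, was close to WT replicate B, which stood above the other WT libraries. The means were 1042 ± 125 and 749 ± 90.2 (SD, n = 4 each), a log2 fold change of 0.47 (SE 0.11, 95% confidence interval 0.22 to 0.73), with a limma p of 0.00255 and an adjusted p of 0.248. The exact permutation test gave p = 0.0286, the smallest that 4 against 4 libraries allow. DESeq2 gave an adjusted p of 0.0192.

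Xiap lies on chromosome X (39412856 to 39462833, plus strand, mm9). Its annotated exons, 9.262 kb in all, are longer than those of 93.7% of the genes tested, and their GC content of 39.6% exceeds that of only 3.83% of them. When a smooth term in exon length and GC content was taken out of each library, the log2 fold change of Xiap dropped from 0.47 to 0.21 (95% confidence interval 0.033 to 0.38, limma p of 0.0249, adjusted p of 0.420). The part of length and GC content in the difference was not tested further. All libraries came from animals with Y-linked RNA and little Xist: Xist was at 1.66 to 12.8 normalized reads throughout. The 4 Y-linked genes on the marker list also had higher estimates in Ntn1-/- libraries, at log2 fold changes of 0.21 to 0.45, and 3 of them did not overlap between groups. With the length and GC term these were 0.24 for Ddx3y, 0.26 for Kdm5d, 0.16 for Uty and 0.0031 for Eif2s3y, from 0.45, 0.42, 0.44 and 0.21.

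Birc2 was measured at 871, 869, 749 and 831 normalized reads in Ntn1-/- replicates A to D and at 748, 761, 687 and 748 in WT. Of the Ntn1-/- libraries, 3 lay above every WT library, and replicate C fell among them. The means were 830.1 ± 56.9 and 736 ± 33.5 (SD, n = 4 each) and the log2 fold change was 0.17 (SE 0.08), with a limma p of 0.0488, an adjusted p of 0.318 and an exact permutation p of 0.0571. With the length and GC term the log2 fold change was 0.10 (limma p of 0.230). The estimate stayed under an unadjusted p of 0.05 in 9 of 20 alternative analyses.

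Birc3, which NF-kB is known to induce, spread more widely. It was measured at 445, 329.9, 402 and 503 normalized reads in Ntn1-/- replicates A to D and at 298, 445, 416 and 278 in WT. The groups overlapped, with WT replicates A and D lowest and Ntn1-/- replicate D highest. The log2 fold change was 0.24 (SE 0.19, 95% confidence interval -0.19 to 0.66), with a limma p of 0.242 and an adjusted p of 0.565. It was 0.12 without WT replicate D, 0.14 without Ntn1-/- replicate D, 0.16 without WT replicate A, 0.11 under the length and GC term, and 0.42 when Ntn1-/- replicates B and C were left out.

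Birc2 (chromosome 9, 7818236 to 7835255, minus strand) and Birc3 (chromosome 9, 7848699 to 7873186, minus strand) lie 13443 bases apart in mm9, and their translated products are 69.9% identical over 591 aligned residues. Such a pair can share reads, so the longest stretch of coding sequence that they have in common is shown in capitals, with 12 bases of each gene in lower case on either side.

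Birc2: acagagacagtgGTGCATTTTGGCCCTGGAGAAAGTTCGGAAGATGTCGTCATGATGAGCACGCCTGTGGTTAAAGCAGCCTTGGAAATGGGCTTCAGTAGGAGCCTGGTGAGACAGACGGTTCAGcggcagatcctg
Birc3: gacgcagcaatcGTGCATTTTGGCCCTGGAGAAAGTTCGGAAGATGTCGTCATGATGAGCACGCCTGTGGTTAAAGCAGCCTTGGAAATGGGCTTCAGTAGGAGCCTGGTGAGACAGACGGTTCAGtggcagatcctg

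These 114 bases hold all 65 windows of 50 bases, the read length, that match exactly between the genes. Windows were taken from protein-coding transcripts and compared on the same strand, so other exon sequence was not examined. Allowing 2 mismatches, as the alignment did, 128 windows were shared, 4.15% of those of Birc2 and 2.82% of those of Birc3. Counting every protein-coding gene, 112 windows of Birc3 (2.46%) had an exact match elsewhere, 65 of them in Birc2, and all 65 of those of Birc2 (2.11%) were in Birc3. The values of both genes are therefore uncertain at least in these stretches, since how reads with more than 1 place were counted is not given in the sources used here. Xiap differed from Birc2 by at least 12 bases and from Birc3 by at least 13 in every such window, and shared none with any other protein-coding gene.

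At the death receptor, Casp8 was measured at 705, 394, 632 and 815 normalized reads in Ntn1-/- replicates A to D and at 576, 729, 749.6 and 607 in WT. Ntn1-/- libraries were both the lowest (replicate B) and the highest (replicate D), and the groups overlapped. The log2 fold change was -0.10 (SE 0.21, 95% confidence interval -0.59 to 0.38), with a limma p of 0.635 and an adjusted p of 0.843, and without Ntn1-/- replicate B it was 0.11.

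Cflar was measured at 3071, 2721, 2470.2 and 2536 normalized reads in Ntn1-/- replicates A to D and at 2569.9, 2565, 2348 and 2311 in WT. Ntn1-/- replicates A and B were the highest, and C and D fell within the WT range. The means were 2699 ± 269 and 2448 ± 138 (SD, n = 4 each), a log2 fold change of 0.14 (SE 0.09) with a limma p of 0.144 and an adjusted p of 0.459. With the length and GC term the sign turned, to -0.084. Of the 7888 windows of 50 bases in the protein-coding transcripts of Cflar, 2.41% matched those of another protein-coding gene exactly.

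The decoy and its partner were also compared within each library. The ratio of Cflar to Casp8 normalized reads was 4.36, 6.91, 3.91 and 3.11 in Ntn1-/- replicates A to D and 4.46, 3.52, 3.13 and 3.81 in WT. Ntn1-/- replicate B gave the highest ratio and replicate D the lowest, so the groups overlapped. The mean log2 ratio differed by 0.24, a value that depended on the libraries kept. It was 0.022 without Ntn1-/- replicate B, -0.0068 without Ntn1-/- replicates B and C, and 0.41 without Ntn1-/- replicate D. Under the length and GC term, with all libraries kept, the difference was 0.0071. In the same way the ratio of Xiap to Casp9, the caspase whose activation XIAP is known to hold back, was 1.70, 2.07, 1.33 and 1.37 in Ntn1-/- replicates A to D and 1.26, 1.43, 1.12 and 1.23 in WT. The Ntn1-/- ratios were higher on average by 0.34 on the log2 scale but overlapped the WT ratios at WT replicate B, and this difference was 0.22 without Ntn1-/- replicate B and 0.12 with the length and GC term. Ratios of reads between genes depend on their lengths, so only their differences between libraries can be read.

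On the mitochondrial side, Apaf1 (chromosome 10, 90452056 to 90545515, minus strand) was measured at 416, 282, 265 and 399 normalized reads in Ntn1-/- replicates A to D and at 281, 376, 329.9 and 249.8 in WT. Ntn1-/- replicates A and D were the highest of all 8 libraries and replicates B and C lay in the lower part of the WT range. The log2 fold change was 0.13 (SE 0.19, 95% confidence interval -0.30 to 0.56), with a limma p of 0.517 and an adjusted p of 0.779. Without Ntn1-/- replicates B and C, the libraries richest in neuron and skeletal muscle markers, it was 0.41, and with the length and GC term it was -0.079.

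Casp9 (chromosome 4, 141349527 to 141371891, plus strand), the initiator that Apaf1 activates, was measured at 632, 572, 667 and 746 normalized reads in Ntn1-/- replicates A to D and at 555, 618, 637 and 570.4 in WT. Ntn1-/- replicates C and D were the highest, and replicates A and B fell within the WT range. The log2 fold change was 0.13 (SE 0.10, 95% confidence interval -0.09 to 0.35), with a limma p of 0.204 and an adjusted p of 0.526. It was 0.067 without Ntn1-/- replicate D and 0.087 with the length and GC term.

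Casp6 (chromosome 3, 129604343 to 129617021, plus strand), an executioner known for cutting nuclear lamins, was measured at 379, 279.5, 408 and 411 normalized reads in Ntn1-/- replicates A to D and at 306, 428, 457 and 388 in WT. The lowest library was Ntn1-/- replicate B and the highest WT replicate C. The log2 fold change was -0.10 (SE 0.16, 95% confidence interval -0.47 to 0.28), with a limma p of 0.571 and an adjusted p of 0.810. It was 0.031 without Ntn1-/- replicate B and 0.020 with the length and GC term.

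**Figure D3:**
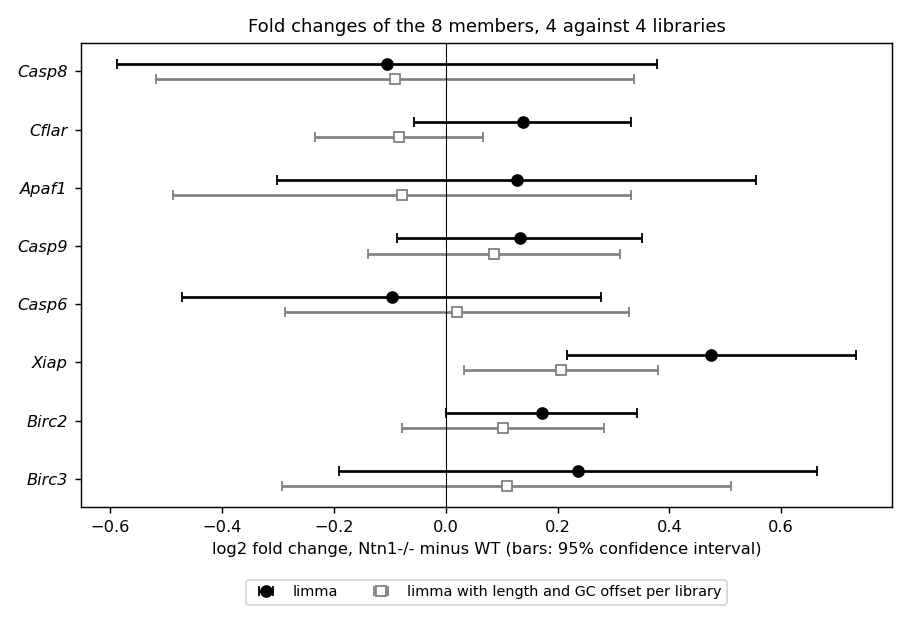
Log2 fold change of each member, Ntn1-/- minus WT (horizontal axis), with its 95% confidence interval, from limma on 4 against 4 libraries (black) and from the same fit after a smooth term in exon length and GC content was removed from each library (grey). The Xiap interval lies above 0 in both fits, at 0.22 to 0.73 and 0.033 to 0.38, and the estimates of Cflar, Apaf1 and Casp6 change sign between them.

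The members differed in how they moved from library to library. Of the marker lists, only macrophage and smooth muscle were correlated with the members. Over the 8 libraries, log2 values of Casp8 and Casp6 followed the mean log2 value of 10 macrophage markers, among them Cd68, Csf1r and Lyz2. For Casp8 Pearson's r was 0.940 (Benjamini-Hochberg adjusted permutation p = 0.0155 over 16 relations, unadjusted exact p = 0.00193) and Spearman's rho was 0.881 (adjusted p = 0.0290). For Casp6 r was 0.917 (adjusted permutation p = 0.0155, unadjusted exact p = 0.00171) and rho was 0.881 (adjusted p = 0.0290). Leaving out Ntn1-/- replicates B and D, the farthest from the median of the marker level, gave 0.707 for Casp8 and 0.910 for Casp6. Taken as deviations from the group means, the values gave 0.943 and 0.914.

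Both genes moved against the mean of 8 smooth muscle markers, with r at -0.848 for Casp8 (adjusted permutation p = 0.0292) and -0.828 for Casp6 (adjusted permutation p = 0.0303), and rho at -0.929 for each (adjusted p = 0.0179). Casp9 gave r of -0.862 with smooth muscle markers (adjusted permutation p = 0.0292), but its rho of -0.74 did not pass (adjusted p = 0.147), and with macrophage markers r was 0.646 (adjusted permutation p = 0.194). Without Ntn1-/- replicates B and D, r with smooth muscle markers was -0.675 for Casp9, -0.794 for Casp8 and -0.957 for Casp6. For Casp9 with macrophage markers it was then 0.438. As deviations from the group means, the Casp9 values gave 0.945 with macrophage and -0.986 with smooth muscle markers, against -0.865 for Casp8 and -0.852 for Casp6 with smooth muscle markers. The other 11 of the 16 relations did not pass. Among them Birc3 gave r of 0.570 with macrophage markers and -0.759 with smooth muscle markers (adjusted permutation p = 0.0806; as deviations from the group means, 0.781 and -0.824), and Apaf1 0.434 and -0.540. Xiap gave r of -0.354 with macrophage markers and 0.043 with smooth muscle markers, Birc2 -0.440 and 0.23, and Cflar -0.41 and 0.33.

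These relations were computed after the values had been seen, and they pool the libraries of both groups. The macrophage and smooth muscle means are not independent of each other. Ntn1-/- replicate D was highest for macrophage and lowest for smooth muscle markers, and Ntn1-/- replicate B the reverse. Relations with smooth muscle markers are therefore not separate from those with macrophage markers. The summed level of the macrophage markers was 30230.4 to 117166 normalized reads in Ntn1-/- and 51724 to 108533 in WT, 9 of the 10 had lower estimates in Ntn1-/-, and none was at 0. That of the smooth muscle markers was 324266 to 841059 in Ntn1-/- and 479975 to 798943 in WT, with none at 0. The part of these levels in the values of Casp8, Casp6 and Casp9 was not tested further. Nor are the relations shown to be particular to macrophages. Adipocyte markers lay -0.19, -1.22, 0.36 and 0.50 log2 units from their mean in Ntn1-/- replicates A to D. In WT replicates A to D they lay at -0.57, 0.31, 0.51 and 0.28. As for Casp6, Ntn1-/- replicate B was lowest, WT replicate A next and WT replicate C highest. T cell markers differed, with Ntn1-/- replicate A lowest (-0.71).

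**Figure D4:**
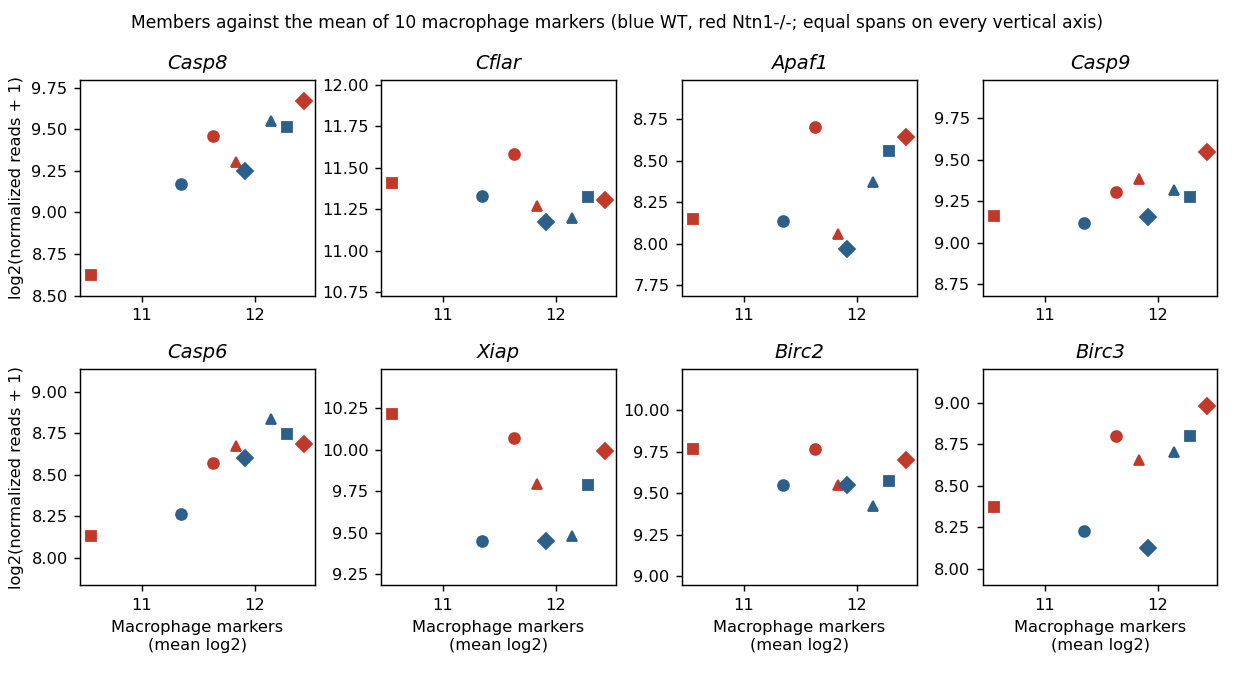
Log2(normalized reads + 1) of each member (vertical axes, all spanning the same log2 distance) against the mean log2 level of 10 macrophage markers (horizontal axes) in the 8 libraries, blue for WT and red for Ntn1-/-, with shapes for replicates as in the plot of member levels. Casp8 (r = 0.940) and Casp6 (r = 0.917) line up with the markers, and Xiap (r = -0.354) does not. Apart from smooth muscle, no other marker list was correlated with the members, so the relations are not shown to be particular to macrophages.

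The genes whose pattern over the 8 libraries was nearest to each member were found by the root mean square difference of z-scored log2 values. Nearest to Casp8 was Itgam, the integrin chain CD11b of myeloid cells (0.128), followed by Dpep2 (0.139). Nearest to Casp9 were Stap1 (0.0696) and Prkcb (0.204), to Casp6 Naa40 (0.179) and Grrp1 (0.195), and to Apaf1 Ckap2l (0.205) and Mppe1 (0.208). Xiap was nearest to Ern1, the endoplasmic reticulum stress sensor IRE1 (0.128), and to Kdm5a, a histone demethylase (0.131), and their log2 fold changes were 0.73 and 0.34. Cflar was nearest to Ddx50 (0.0952) and Tbc1d1 (0.158), Birc2 to Slc35a3 (0.104) and Rcor1 (0.130), and Birc3 to Rbl1 (0.101) and Dck (0.130). None of these genes passed limma's adjusted threshold, and with 8 points a near pattern among 14931 genes is a description only.

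Around the members, 65 genes of the wider death pathway were tested. None passed limma with adjustment over all genes, DESeq2 or edgeR. At an unadjusted limma p under 0.05 there were 7, a share of 10.8% against 15.6% of all genes (edgeR: 7 genes), 2 of them higher in Ntn1-/- and 5 lower. By sign, 24 had higher and 41 lower estimates, but without Ntn1-/- replicates B and C 37 had higher ones. Of the 65, 2 did not overlap between groups (3.08%, against 10.5% of all genes), Tradd and Acin1.

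Of 6 other caspases tested, 4 had higher and 2 lower estimates (median log2 fold change 0.20), none under an unadjusted p of 0.05. Casp12 was the most abundant in normalized reads, at 1121 ± 134 in Ntn1-/- and 949.7 ± 84.2 in WT (SD, n = 4 each; limma p of 0.0508, adjusted p of 0.321), ahead of Casp4 and Casp2. Casp14, the caspase of cornified skin, was at 0 in every library. Of 5 other IAP genes tested, 3 had higher and 2 lower estimates (median 0.066). Birc6, which encodes a giant IAP that is also a ubiquitin-conjugating enzyme, was measured at 1338 ± 174 normalized reads in the Ntn1-/- group and 1069 ± 71.8 in WT, a log2 fold change of 0.32 (SE 0.10, limma p of 0.0134, adjusted p of 0.253), and 0.073 with the length and GC term.

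All 3 IAP antagonists, which displace caspases from XIAP or bind it, had lower estimates (median -0.056), among them Diablo, the mitochondrial Smac, at 1393 ± 116 against 1420.1 ± 141 normalized reads (adjusted limma p of 0.916). All 4 apoptosome and mitochondrial death factors had lower estimates (median -0.15), and the most abundant, Cycs, which encodes cytochrome c, was at 7805 ± 1474 against 8549.8 ± 2705 (adjusted limma p of 0.849). None of these 7 genes was under an unadjusted p of 0.05.

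Of 7 death ligands and receptors tested, 3 had higher and 4 lower estimates (median -0.12). Tnfsf10, which encodes the death ligand TRAIL, averaged 304 ± 55.1 normalized reads with Ntn1-/- donors and 210.1 ± 38.4 with WT donors, a log2 fold change of 0.53 (SE 0.17, limma p of 0.0144, adjusted p of 0.253), with the groups overlapping. Tnfrsf25, the receptor DR3, was at 186 ± 32.7 and 248 ± 36.8 (log2 fold change -0.42, limma p of 0.0261, adjusted p of 0.274). Tnfrsf1a, the main TNF receptor, was the most abundant, at 5213 ± 1104 and 6092 ± 776 (adjusted limma p of 0.512).

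Among 14 adaptors and kinases of the death receptors, 3 had higher and 11 lower estimates (median -0.082). Tradd, the adaptor that docks on the TNF receptor, averaged 347 ± 22.9 normalized reads with Ntn1-/- donors and 423 ± 27.4 with WT donors, with no overlap, a log2 fold change of -0.29 (SE 0.09, limma p of 0.0099, adjusted p of 0.249), and -0.11 with the length and GC term. Traf2, which brings cIAP1 and cIAP2 to the receptor, had a log2 fold change of -0.21 (limma p of 0.0364, adjusted p of 0.295), and Sharpin, a part of the linear ubiquitin ligase, one of -0.17 (limma p of 0.0491, adjusted p of 0.318). Ripk1, the kinase at the branch between survival and death, was at 1099 ± 132 and 1123 ± 57.1 (adjusted limma p of 0.881).

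Of 10 NF-kB target genes tested, 3 had higher and 7 lower estimates (median -0.12), none under an unadjusted p of 0.05. Of 9 caspase substrates, 3 had higher and 6 lower estimates (median -0.080): Acin1, which encodes a chromatin-condensing factor that caspases cut, was at 3054 ± 181 and 3488 ± 123 with no overlap (log2 fold change -0.19, SE 0.07, limma p of 0.0201, adjusted p of 0.259), and Lmna, the lamin that Casp6 cuts, at 9820.0 ± 1547 and 11721 ± 825 (adjusted limma p of 0.338). Of 8 netrin receptors and their partners, 6 had higher and 2 lower estimates (median 0.16), none under an unadjusted p of 0.05. The UNC5 receptors among them are known to trigger caspases when netrin-1 is missing. Neo1, the receptor neogenin, was at 2585 ± 810 and 2433 ± 517 (adjusted limma p of 0.932), and Unc5b at 1372 ± 360.03 and 1179.5 ± 217 (adjusted limma p of 0.628). Of the 7 genes under an unadjusted p of 0.05, 3 stayed there with the length and GC term: Traf2, Sharpin and Acin1.

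**Figure D5:**
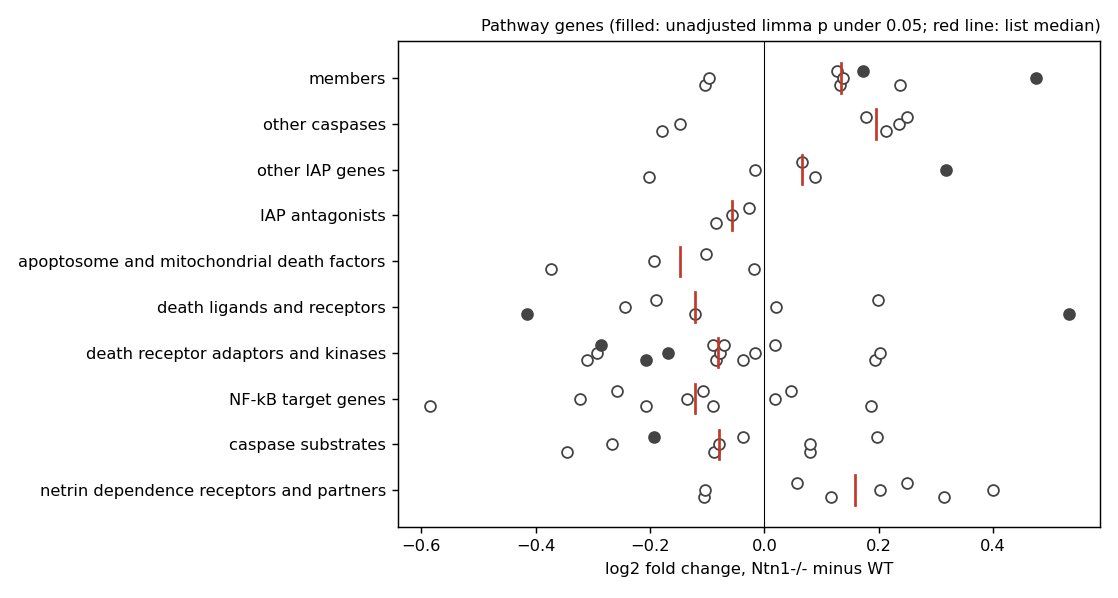
Log2 fold change, Ntn1-/- minus WT (horizontal axis), of the 8 members and of the wider pathway, with 1 row for each gene list and 1 point for each gene tested. Points are filled where the unadjusted limma p is under 0.05 (Xiap and Birc2 among the members) and the red lines mark list medians, which run from -0.15 for the apoptosome and mitochondrial death factors to 0.20 for the other caspases; the members' median is 0.13.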

How the data were processed

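Whole aortas of 4 Ntn1-/- and 4 WT recipients were sequenced as single-end reads of 50 nt. Per the study's methods the authors aligned them to mm9 with TopHat 2.0.9, allowing 2 mismatches, took gene counts from the alignments with featureCounts and tested expression with DESeq2; whether counting used strand is not given in the sources used here. How the deposited values, a signal, were normalized was read from the values themselves as read counts divided by a size factor: multiplied back by 1 factor per library, 100% of all 187360 values came out whole within 0.001 reads. The authors' own comparison columns, deposited as log2 fold changes, a test score and p-values from DESeq2, and their pathway sheets were not used.

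Genes with a mean of at least 10 (14931) were tested on log2(value + 1) with limma 3.58.1 (trend) and Benjamini-Hochberg adjustment, called at an adjusted p under 0.05. Single-gene permutation tests were exact and two-sided. DESeq2 1.42.0 and edgeR 4.0.16 ran on the recovered reads. Fits were tested on simulated data. Exon lengths, GC content and sequences came from the mm9 genome and GENCODE annotation. The members and gene lists were chosen with earlier results of these data known. Named genes were the members, every listed gene with an unadjusted p under 0.05, up to 3 others per list with the highest level, and the 2 nearest patterns of each member. 27 genes listed as dates in place of symbols were kept by identifier. Alternatives changed the pseudocount, filter, scaling, tool, block, length and GC, and libraries.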

Additional observations from a re-analysis of the deposited data

Results flagged for a closer look

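In 9 of 84 groups of 4 libraries, 1 library lay far from the other 3, measured as its gap to the nearest library over the whole range against Dixon's critical value at the 95% level; chance alone gives about 1 such group in 20, or 4.2 of 84. Among the members, WT replicate B held 884 normalized reads of Xiap while the other WT libraries held 700.0 to 712, and WT replicate C held 687 of Birc2 while the others held 748 to 761. Among pathway genes WT replicate A stood apart in 4: Naip2 at 87.5 (others 186 to 188), Fas at 1645 (1333 to 1364), Sptan1 at 9501 (8344 to 8534) and Neo1 at 3207 (2129.9 to 2222). WT replicate D held 3059 of Rbck1 (2424 to 2531), Ntn1-/- replicate B held 516 of Htra2 (644 to 654) and Ntn1-/- replicate C held 9999 of Cycs (6835 to 7284).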

How the results depend on the processing

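Across 20 alternatives, limma and edgeR settings called 0 genes and DESeq2 called 542, with 1 member among them: Xiap at a log2 fold change of 0.48 (adjusted p = 0.0192). Xiap stayed higher in all 20, from 0.21 (length and GC term) to 0.56, 0.41 to 0.56 with 1 library left out, at an unadjusted p under 0.05 in 20 of 20 and an adjusted p of 0.0192 to 0.625. Members under an unadjusted p of 0.05 numbered 1 in place of 2 without the filter on low values, with the replicate block, with the length and GC term, and with both, 1 to 2 with 1 library left out, and 3 without Ntn1-/- replicates B and C, where Apaf1 reached a limma p of 0.0495. Pathway genes under that p numbered 4 with the length and GC term and 3 with the block added, in place of 7, while the count over all genes went from 2333 of 14931 to 1494 and 1104 of 14142. They numbered 9 with the block alone and 10 with DESeq2, and those with a higher estimate numbered 37 in place of 24 without Ntn1-/- replicates B and C. With the length and GC term, alone or with the block, Casp6 turned to 0.020, Apaf1 to -0.079 and Cflar to -0.084. Casp6 ranged from -0.21 to 0.031 and Casp8 from -0.24 to 0.11 with 1 library left out, and they were 0.016 and 0.20 without Ntn1-/- replicates B and C. Casp9 (0.067 to 0.21), Birc2 (0.10 to 0.22) and Birc3 (0.11 to 0.42) kept their direction in all 20 alternatives but not their size. The cause of these shifts was not tested.

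Same-lettered libraries did not stand out as alike. Deviations from the group means correlated at -0.01, -0.30, 0.15 and -0.26 for same-lettered pairs A to D, and Ntn1-/- replicate B correlated best with WT replicate A (0.64). Such correlations cannot show whether libraries with the same letter were handled together. With the replicate block 1806 genes in place of 2333 lay under an unadjusted p of 0.05, and 0 were called. In this balanced design the block cannot move an estimate, only its p: Xiap, at 0.47, had a limma p of 0.00163 and an adjusted p of 0.399. The length and GC term could be fitted for 14142 of the 14931 genes (94.7%). With 4 libraries a group, the 95% intervals of all 8 members reach beyond 0.25 in at least 1 direction, so the size of each difference is known only loosely.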
